A study of Mus musculus with 6 samples.

Results

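The 10 elastic fibre and microfibril genes *Eln*, *Fbn1*, *Fbn2*, *Fbln1*, *Fbln2*, *Fbln5*, *Efemp2*, *Mfap2*, *Mfap5* and *Emilin1* were measured in tail tendons of WT and *Mkx*-/- mice. They were chosen by gene symbol, with earlier results of these data known. All 10 were found among the 44788 symbols of the count table. *Mkx* encodes Mohawk, a homeodomain transcription factor of tendon cells that is known to promote collagen I expression. Bulk RNA-seq was performed on the Ion Proton system with 3 libraries from WT and 3 from *Mkx*-/- mice, all labelled as C57BL/6 and 3 weeks of age, while the text of the study gives a slightly higher age. The labels list no treatment. The labels do not say whether a library came from 1 mouse or from pooled mice, so the p-values below measure the spread between libraries.

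Elastic fibres give tissues the ability to recoil. They consist of a core of cross-linked elastin, made from its soluble precursor tropoelastin, on a scaffold of microfibrils. The microfibrils are built from fibrillins and carry microfibril-associated glycoproteins. Fibulins and emilins lie in the elastin core or at its surface, and some of them take part in its deposition and cross-linking. Microfibrils also occur without elastin, and they bind latent TGF-β complexes. In tendon, elastic fibres are a small part of a matrix that is mostly collagen I, and they run around cells and between fascicles.

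The libraries held 10835070 to 14160301 counts, of which the 10 genes took 0.299% to 0.348% in WT and 0.521% to 0.656% in *Mkx*-/- tendons. *Col1a1*, *Col1a2* and *Sparc* took 42.0% to 48.5% of the counts in WT and 28.3% to 34.8% in *Mkx*-/- libraries, so levels are given as CPM (counts relative to library size) after TMM normalization, which corrects for such shifts in composition. *Mkx* itself had 135 to 144 CPM in WT and 38.9 to 56.8 CPM in *Mkx*-/- libraries, so reads on this gene remained. WT replicate 3 was the only library with reads on the Y-linked gene *Ddx3y*. It also had 1 count of the X-linked gene *Xist*, against 1289 to 1866 in the other libraries. By these genes sex was not balanced between the genotypes, and its part in the results was not tested. Of 11 tendon markers, none at 0 in any library, 3 were higher and the others lower, with summed levels of 382061 to 524768 CPM in WT and 244995 to 339697 CPM in *Mkx*-/- libraries and a median log2 fold change of -0.42. *Col1a1* and *Col1a2* made up most of these sums, with 130859 and 223607 of the 382061 CPM in WT replicate 1. *Tnmd*, *Dcn* and *Fmod* hardly differed, with log2 fold changes of -0.024, -0.033 and 0.11. Apart from *Mkx*, which was called lower, *Thbs4* was called higher (log2 fold change 1.26). *Scx* (-1.14), *Egr1* (-1.13) and *Col1a2* (-1.02) did not pass the edgeR test. DESeq2 called each of them lower at the same thresholds (adjusted p by DESeq2 = 0.0145, 0.00601 and 4.04e-07). Of 12 endothelial markers, 10 were higher, with summed levels of 78.9 to 97.8 CPM in WT and 132 to 205 CPM in *Mkx*-/- libraries and with no marker at 0. Only *Erg* was called, with 6.78, 8.44 and 9.69 CPM in WT and 44.1, 37.1 and 26.9 CPM in *Mkx*-/- libraries. *Pecam1* had 5.91, 7.26 and 5.45 CPM in WT and 8.88, 9.27 and 27.5 CPM in *Mkx*-/- libraries, so *Mkx*-/- replicate 3 stood out. *Emcn* and *Esam* were lower. Of 20 skeletal muscle markers, 19 were higher, with summed levels of 110 to 485 CPM in WT and 674 to 3446 CPM in *Mkx*-/- libraries, and *Mb* was at 0 in at least 1 library. Of 11 macrophage and leukocyte markers, 0 were higher, with summed levels of 637 to 659 CPM in WT and 404 to 452 CPM in *Mkx*-/- libraries and with no marker at 0. Of 9 Schwann cell markers, 9 were higher (8296 to 11001 CPM in WT and 12857 to 23877 CPM in *Mkx*-/- libraries, no marker at 0), as were 7 of 10 tested cartilage markers (3311 to 3803 and 3857 to 4965 CPM, *Matn1* at 0 in all) and 6 of 6 tested skin and hair markers (2.76 to 13.3 and 24.8 to 31.1 CPM, with 4 of 7 at 0 in at least 1 library). Beside *Thbs4* and *Erg*, the markers called higher were 5 of skeletal muscle, *Acan* and *Matn3* of cartilage and *Krt17* of skin and hair. The log2 fold changes of *Acan*, *Matn3* and *Krt17* were 2.20, 1.45 and 3.90. *Col2a1*, *Col11a1* and *Hapln1* of cartilage were lower without being called. *Emr1*, a macrophage marker, was also called lower (-1.09). Over all genes tested, 1.89% were called higher and 1.33% lower. The adipocyte markers summed to 2.66 to 5.34 CPM, with 5 of 7 at 0 in at least 1 library. The part of these cells in the results below was not tested.

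Of the 10 genes, 4 differed between *Mkx*-/- and WT tendons at an adjusted p under 0.05. *Fbn1*, *Fbln5* and *Mfap5* lost this threshold in some or all of the fits with a library omitted. *Fbln1* fell, with a WT level 2.99-fold that of *Mkx*-/- tendons, *Mfap5* rose 1.90-fold, *Fbln5* rose 1.60-fold and *Fbn1* rose 1.57-fold. In bulk samples, a change in the number of cells that express a gene and a change in its RNA per cell cannot be told apart. The test was the quasi-likelihood test of edgeR, adjusted over 14550 genes. At an adjusted p under 0.05 alone, 3 of the 10 genes were higher and 1 was lower, beside 3.18% and 2.26% of all genes tested. With the study's added threshold of a log2 fold change above 1 or below -1, 0 of the 10 genes were called higher and 1 was called lower, beside 1.89% and 1.33% of all genes. Over all genes this was 275 higher and 193 lower, and 711 higher and 154 lower when counts were scaled by library size only, which moved the median of all genes to 0.25. DESeq2 gave the same counts of called members, 0 and 1. The 3 *Mkx*-/- libraries lay above all WT libraries for 3 genes and below them for 1 gene, and these were the same 4 genes, whereas 14.6% and 13.6% of all genes lay above or below in this way. The median log2 fold change was 0.42 over the 10 genes and -0.0037 over all genes tested. The summed level of the 10 genes was 3170, 4035 and 3391 CPM in WT and 5347, 4628 and 5758 CPM in *Mkx*-/- libraries.

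**Figure D1:**
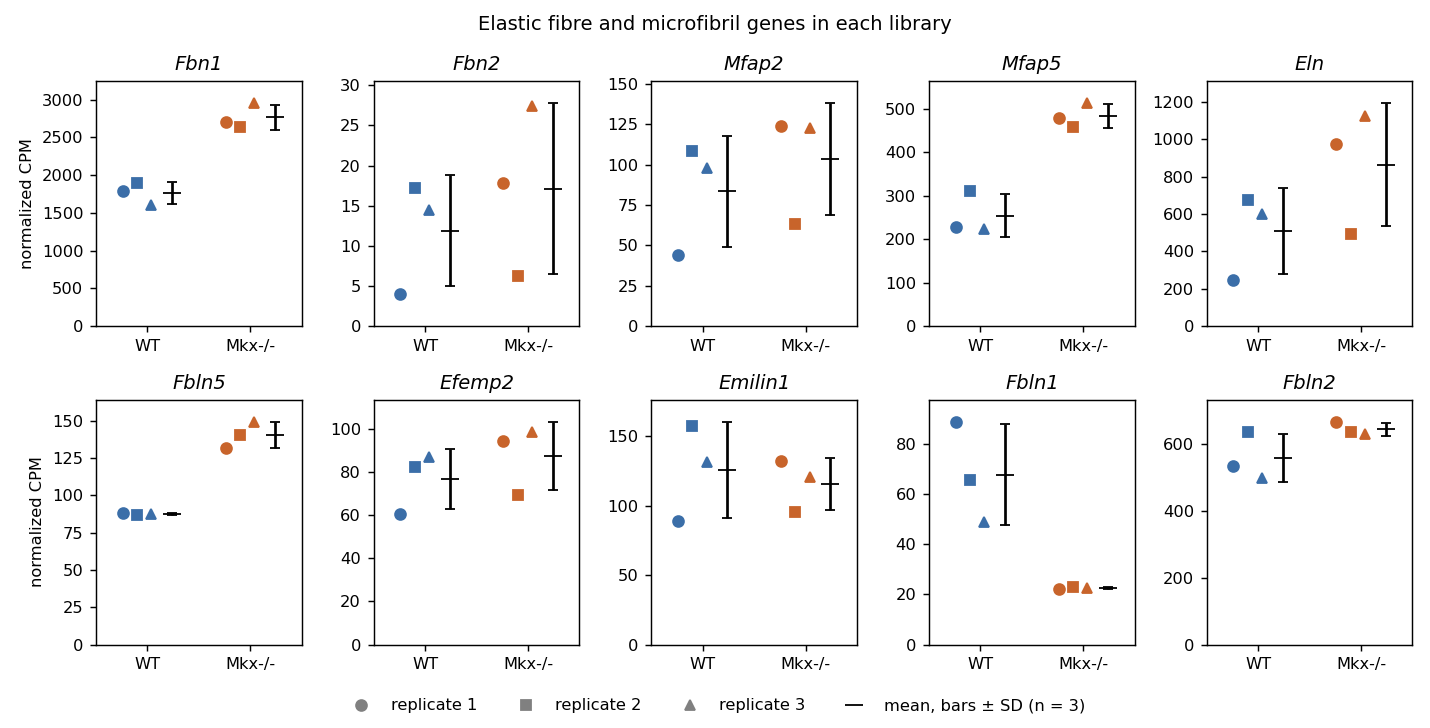
Normalized CPM (vertical axes, from 0) of the 10 genes in the 3 WT and 3 *Mkx*-/- libraries, with the mean ± SD beside the points. *Fbn1*, *Mfap5* and *Fbln5* are higher and *Fbln1* is lower in all *Mkx*-/- libraries, while *Eln*, *Fbn2* and *Mfap2* are low in WT replicate 1 and in *Mkx*-/- replicate 2.

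The fibrillins form the backbone of the microfibril. *Fbn1*, the main fibrillin gene after birth, spans bases 125126330 to 125333729 of chromosome 2 (mm9, minus strand). Its level was 1784, 1895 and 1602 CPM in WT and 2709, 2642 and 2953 CPM in *Mkx*-/- libraries. The groups did not overlap, and each stayed within a coefficient of variation of 8.39%. The log2 fold change was 0.65 (standard error, SE, 0.15, adjusted p by edgeR = 0.0458). This value lay close to the threshold and was not past it in any of the 6 fits with a library omitted, in which the adjusted p ranged from 0.0585 to 0.166 and the log2 fold change from 0.57 to 0.69. The annotation places the gene *Gm9913* on the opposite strand within *Fbn1*, and whether the counting used strand is not given in the sources used here.

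*Fbn2*, the fibrillin gene that is used most before birth, lies on chromosome 18 from 58168277 to 58369580. It was counted 51, 175 and 180 times in WT and 194, 88 and 346 times in *Mkx*-/- libraries, or 4.02, 17.2 and 14.4 CPM against 17.8, 6.18 and 27.4 CPM. The groups overlapped, and the spread between libraries of a group was larger than the difference between the groups. The log2 fold change of 0.53 (SE 0.59, adjusted p by edgeR = 0.645) had a 95% confidence interval of -0.81 to 1.88, which is too wide to show a change of either sign. Omitting WT replicate 1 lowered the log2 fold change to 0.11, and omitting *Mkx*-/- replicate 3 lowered it to 0.0063.

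The microfibril-associated glycoproteins bind fibrillins along the microfibril. *Mfap5*, which encodes MAGP-2, lies on chromosome 6 from 122455863 to 122479308. Its level was 228, 310 and 223 CPM in WT and 479, 458 and 512 CPM in *Mkx*-/- libraries. Every *Mkx*-/- library was above every WT library, and the log2 fold change was 0.93 (SE 0.16, adjusted p by edgeR = 0.0177). Leaving out a library kept the adjusted p past the threshold 3 times of 6, and it was 0.0877 without WT replicate 3, 0.0508 without *Mkx*-/- replicate 2 and 0.0640 without *Mkx*-/- replicate 3. Its paralog *Mfap2*, which encodes MAGP-1, lies on chromosome 4 from 140566333 to 140571899. It had 44.2, 108 and 98.1 CPM in WT and 124, 63.4 and 123 CPM in *Mkx*-/- libraries, so that the groups overlapped. Its log2 fold change was 0.31 (SE 0.36, adjusted p by edgeR = 0.664), with a 95% confidence interval of -0.51 to 1.12, and it was -0.00062 without WT replicate 1.

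*Eln* encodes tropoelastin, the core protein, and lies on chromosome 5 from 135179651 to 135223111. Its level was 248, 676 and 601 CPM in WT and 972, 494 and 1124 CPM in *Mkx*-/- libraries. The highest values were in *Mkx*-/- replicates 1 and 3, and *Mkx*-/- replicate 2 lay below WT replicates 2 and 3. The mean was 508 ± 228 CPM for WT against 863 ± 329 CPM for *Mkx*-/- tendons (SD, n = 3 each), and the log2 fold change was 0.76 (SE 0.40, adjusted p by edgeR = 0.307) with a 95% confidence interval of -0.16 to 1.69. *Eln* did not pass the test in any of the 6 fits with a library omitted. Omitting WT replicate 1 lowered its log2 fold change to 0.43, and omitting *Mkx*-/- replicate 2 raised it to 1.04. Elastin is also made by vascular smooth muscle cells, and *Mkx*-/- replicate 3, the library with the most *Eln*, stood apart in their markers. The summed level of 12 smooth muscle and pericyte markers (9 of 11 tested were higher) was 1481 CPM in this library and 504 to 594 CPM in the others, and *Cnn1* was at 0 in at least 1 library. The smooth muscle myosin gene *Myh11* had 202 CPM in *Mkx*-/- replicate 3 and 1.97 to 2.75 CPM in the others. *Mkx*-/- replicate 1, with 972 CPM of *Eln*, had a marker sum of 564 CPM and 2.75 CPM of *Myh11*. Whether smooth muscle cells contributed to the level of *Eln* was not tested.

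Fibulin-5, fibulin-4 and emilin-1 act between tropoelastin and the microfibril. *Fbln5*, whose product fibulin-5 binds tropoelastin and the cross-linking enzyme Loxl1, lies on chromosome 12 from 102984775 to 103057265 and had the smallest coefficient of variation of the 10 genes in WT (0.862%). It had 88.3, 86.9 and 87.2 CPM in WT and 132, 141 and 149 CPM in *Mkx*-/- libraries. The groups were far apart relative to their spread, and the log2 fold change was 0.68 (SE 0.11, adjusted p by edgeR = 0.0141). Leaving out a library kept the adjusted p past the threshold 2 times of 6, and it was 0.0646, 0.0676, 0.0551 and 0.0584 without WT replicates 2 and 3 and *Mkx*-/- replicates 2 and 3, while the log2 fold change stayed between 0.64 and 0.71 in these fits. *Efemp2* (chromosome 19, 5473973 to 5481853) encodes fibulin-4, which binds lysyl oxidase and is required for elastic fibres to form. It had 60.7, 82.3 and 86.8 CPM in WT and 94.3, 69.3 and 98.7 CPM in *Mkx*-/- libraries, with a log2 fold change of 0.19 (adjusted p by edgeR = 0.596, 95% confidence interval -0.23 to 0.61). *Emilin1*, on chromosome 5 from 31215775 to 31223651, encodes a glycoprotein between elastin and the microfibrils. Its level was 88.9, 157 and 132 CPM in WT and 132, 95.4 and 120 CPM in *Mkx*-/- libraries. The log2 fold change of -0.12 (adjusted p by edgeR = 0.795, 95% confidence interval -0.62 to 0.38) changed sign when WT replicate 2 or *Mkx*-/- replicate 2 was omitted (0.056 and 0.0037) and when counts were scaled by library size only (0.15). The groups overlapped for both *Efemp2* and *Emilin1*.

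*Fbln1* encodes fibulin-1, which is found in the elastin core and in basement membranes, and lies on chromosome 15 from 85036379 to 85116965. It was counted 1129, 668 and 612 times in WT and 242, 329 and 287 times in *Mkx*-/- libraries, or 88.9, 65.6 and 49.0 CPM against 22.2, 23.1 and 22.8 CPM. The *Mkx*-/- libraries were nearly equal, and all of them were below the lowest WT library. The log2 fold change was -1.58 (SE 0.21, adjusted p by edgeR = 0.00525), with a 95% confidence interval of -2.05 to -1.11, which ranked 160 from the lowest of 14550 genes. *Fbln1* stayed past the threshold in all 6 fits with a library omitted, with log2 fold changes between -1.78 and -1.34. *Fbln2* (chromosome 6, 91162449 to 91222534), whose product binds fibrillin-1 and tropoelastin, had 535, 636 and 498 CPM in WT and 666, 636 and 628 CPM in *Mkx*-/- libraries. Its log2 fold change was 0.21 (adjusted p by edgeR = 0.429, 95% confidence interval -0.11 to 0.53), and WT replicate 2 lay within the range of the *Mkx*-/- libraries.

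**Figure D2:**
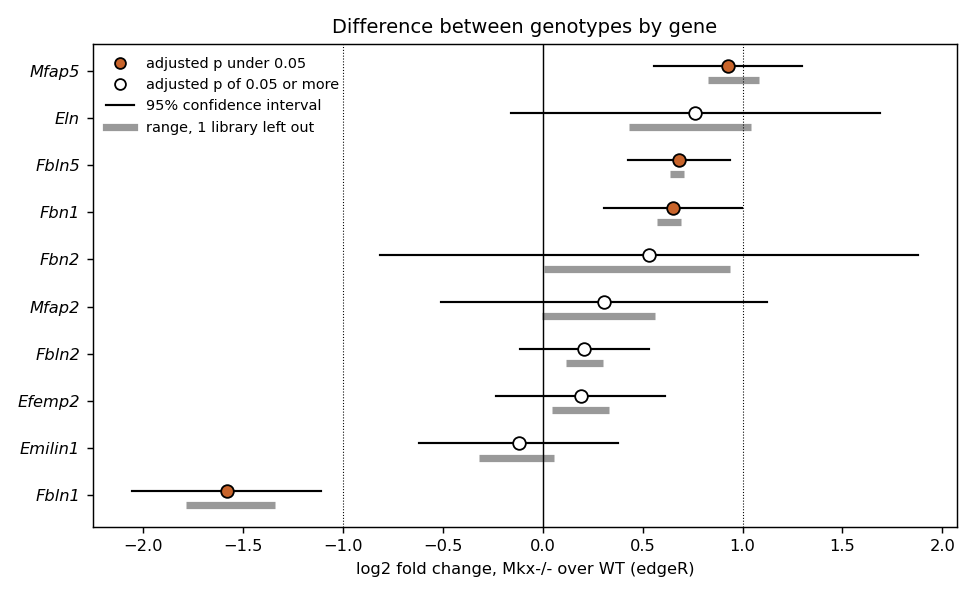
Log2 fold change of *Mkx*-/- over WT (horizontal axis) for each gene, with its 95% confidence interval and, in grey, the range over the 6 fits that left out a library. *Fbln1* at -1.58 is the only gene outside the dotted lines at -1 and 1, and the intervals of *Eln*, *Fbn2*, *Mfap2*, *Fbln2*, *Efemp2* and *Emilin1* cross 0.

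The sequences before the start sites of *Fbln1*, which fell, *Fbln5*, which rose, and *Efemp2*, which did not pass the test, are shown since these fibulin genes differed in direction. Windows of RefSeq (GRCm38) were held for 7 of the 10 genes (12 start sites), and each matched the mm9 genome exactly once. *Eln*, *Fbn2* and *Mfap5* had no entry. The lines give the 250 bases before a start site, 5′ to 3′ on the strand of the gene, at chr15:85036129-85036378 (plus strand), chr12:103057330-103057579 (minus strand) and chr19:5473696-5473945 (plus strand) in mm9. Capitals mark the GC box GGGCGG on either strand.

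*Fbln1*: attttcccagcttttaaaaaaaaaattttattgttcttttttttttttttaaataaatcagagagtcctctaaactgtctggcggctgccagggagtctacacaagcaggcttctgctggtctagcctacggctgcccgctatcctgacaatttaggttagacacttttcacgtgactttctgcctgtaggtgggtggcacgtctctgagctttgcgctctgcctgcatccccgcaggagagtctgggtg

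*Fbln5*: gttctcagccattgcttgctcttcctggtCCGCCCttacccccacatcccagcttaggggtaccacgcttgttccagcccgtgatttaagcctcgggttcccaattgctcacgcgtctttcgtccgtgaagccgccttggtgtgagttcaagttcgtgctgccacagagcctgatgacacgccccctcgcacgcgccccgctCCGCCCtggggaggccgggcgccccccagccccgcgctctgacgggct

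*Efemp2*: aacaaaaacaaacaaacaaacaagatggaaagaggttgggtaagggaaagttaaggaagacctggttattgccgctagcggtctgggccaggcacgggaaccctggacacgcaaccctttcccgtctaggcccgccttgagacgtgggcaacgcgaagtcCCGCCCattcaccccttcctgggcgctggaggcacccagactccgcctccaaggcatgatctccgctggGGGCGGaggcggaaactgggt

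The window of *Fbln1* held no GC box and had a GC content of 46.4%, against 65.2% for *Fbln5* with 2 GC boxes and 59.2% for *Efemp2* with 2. This order depends on the start site: a second *Fbln1* window, 59 bases further on, had 1 GC box and a GC content of 62.4%, and a second *Fbln5* window had 0 GC boxes and 49.6%. On both strands, GGGCGG was found in 8 of the 12 windows and in 32.7% of 32851 windows of the same length. The GC content was 46.4% to 78.8% in the 12 windows, and its median over all windows was 52.4%. The windows of *Fbn1*, *Fbln2* and *Emilin1* lay wholly within annotated exons of these genes. The TEAD motif CATTCC was found in 1 of the 12, before *Mfap2*, and in 12.6% of all windows. The TATA box TATAAA, the AP-1 motif TGANTCA, the SMAD palindrome GTCTAGAC and the homeodomain palindrome ACANNTGT were in 0 of the 12 windows, and in 12.4%, 6.75%, 0.167% and 6.31% of all windows. The motifs do not overlap with each other in the windows shown. Windows of neighbouring start sites of a gene share bases, and the matches are a description of the letters only.

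Ratios within a library need no scaling between libraries. The log2 ratio of *Fbln2* to *Fbln1* counts was 2.59, 3.28 and 3.35 in WT and 4.91, 4.78 and 4.79 in *Mkx*-/- libraries, a difference of 1.76. The ranges were apart, and the exact two-sided permutation test gave p = 0.1, the smallest value that 3 libraries against 3 allow (0.3 after Benjamini-Hochberg adjustment over 6 ratios). The log2 ratio of *Emilin1* to *Eln* was -1.48, -2.10 and -2.19 in WT and -2.88, -2.37 and -3.22 in *Mkx*-/- libraries, also without overlap, with a difference of -0.90 (exact permutation p = 0.1, adjusted 0.3). For *Fbn2* to *Fbn1*, *Eln* to *Fbn1*, *Mfap5* to *Mfap2* and *Fbln5* to *Efemp2*, the differences were -0.12, 0.15, 0.60 and 0.49, and the ranges of the genotypes overlapped (exact permutation p = 1, 0.6, 0.3 and 0.2).

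To compare levels between genes, CPM were divided by the length of all annotated exons of a gene. Per kb of exon, the order of the WT means was *Eln* with 197 ± 88.3 CPM per kb, *Fbn1* with 145 ± 12.2, *Fbln2* with 94.7 ± 12.2, *Mfap5* with 70.7 ± 13.7, *Mfap2* with 69.0 ± 28.5, *Efemp2* with 28.9 ± 5.27, *Emilin1* with 25.5 ± 6.99, *Fbln1* with 15.5 ± 4.59, *Fbln5* with 15.0 ± 0.129 and *Fbn2* with 1.13 ± 0.662 (SD, n = 3 each). Of these neighbours in WT, *Fbn1* and *Fbln2*, *Mfap2* and *Efemp2*, and *Fbln5* and *Fbn2* did not overlap, and the others did. In *Mkx*-/- tendons *Mfap5* stood before *Fbln2*, with 135 ± 7.62 against 109 ± 3.37 CPM per kb, and *Fbln1* fell to place 9 with 5.19 ± 0.110 CPM per kb (SD, n = 3 each). *Fbln5* and *Emilin1*, with 24.1 and 23.5 CPM per kb, overlapped there, as did *Eln* and *Fbn1* with 334 and 228. The annotated *Eln* transcript of 2583 bases holds little beyond its coding sequence of 2580 bases, which raises its level per length against genes with annotated UTRs. Per kb of coding sequence, a scale chosen after the values were seen, *Mfap5* came first in both genotypes and *Eln* was in place 3 in WT and 2 in *Mkx*-/- tendons.

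**Figure D3:**
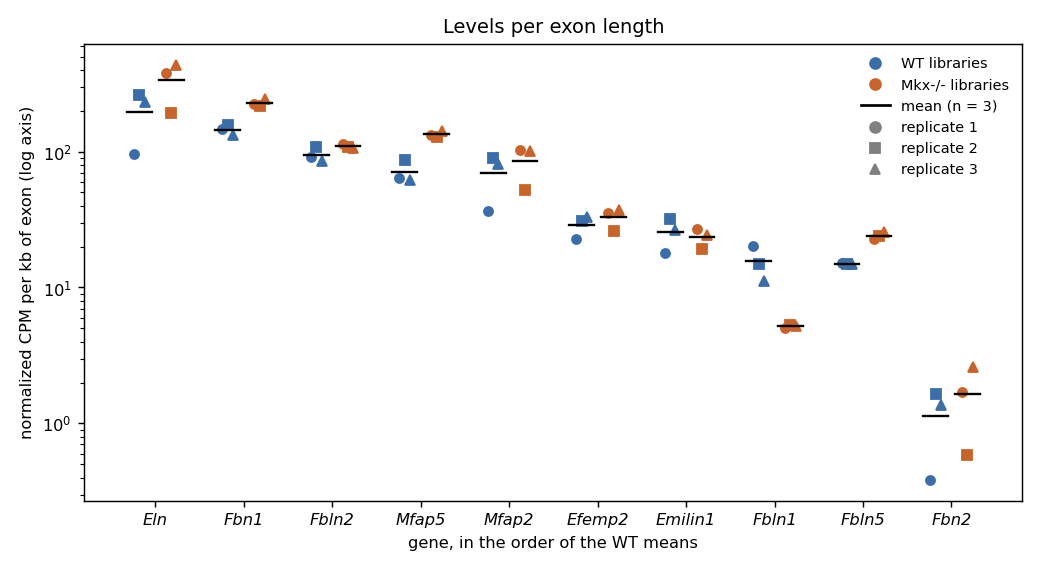
Normalized CPM per kb of annotated exon (log axis) of each gene, ordered by the WT means, with points for libraries and lines for means. *Fbn2* is far below *Fbn1* in every library, and *Fbln1* drops from 15.5 to 5.19 CPM per kb between the genotypes.

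The 10 genes differed in how they varied between libraries of a genotype. *Eln*, *Fbn2*, *Mfap2*, *Emilin1* and *Efemp2* were lowest in WT replicate 1 and in *Mkx*-/- replicate 2. The log2 CPM of *Eln* was 0.91 below its genotype mean in the former and 0.72 below it in the latter, and for *Fbn2* these values were 1.28 and 1.21. *Fbn1*, *Fbln2* and *Fbln5* deviated by at most 0.20 in any library. After the genotype means were taken off, *Fbn2*, *Mfap2*, *Efemp2* and *Emilin1* had Pearson correlations with *Eln* of 0.99, 0.99, 0.98 and 0.94 over the 6 libraries, while those of *Fbn1*, *Fbln5* and *Fbln1* were 0.25, -0.021 and -0.66. A correlation above 0.9 was reached by 4 of the other 9 genes and by 6.85% of all genes tested. The 6 points share their libraries and hold 4 free values, and WT replicate 1 also had the largest deviation over all genes (0.40 log2 units, against 0.27 to 0.30 in the others).

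**Figure D4:**
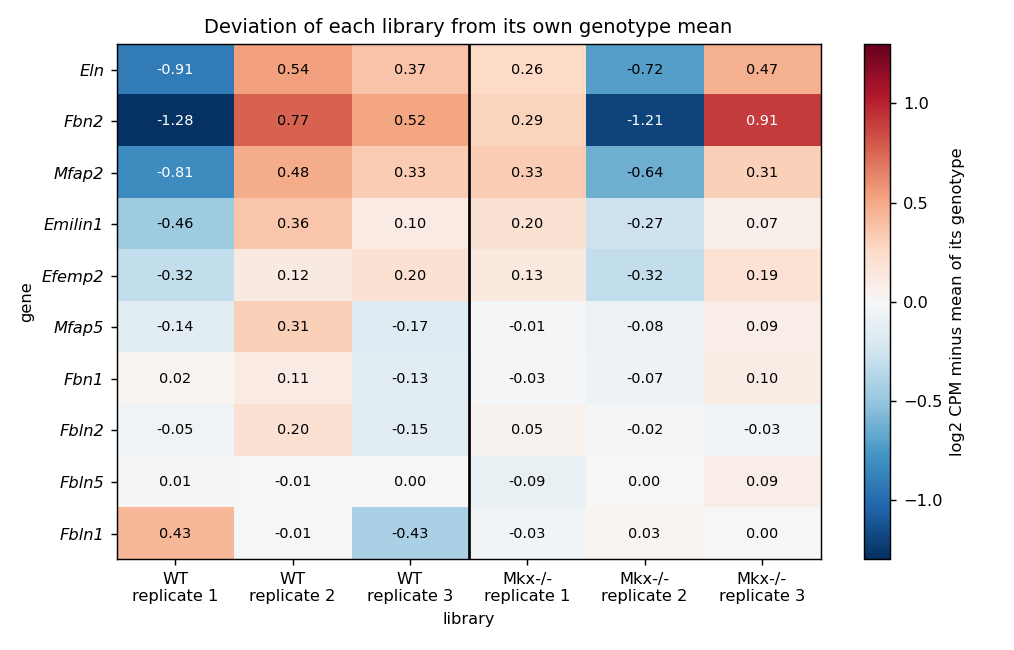
Log2 CPM of each gene in each library minus the mean of its genotype. WT replicate 1 and *Mkx*-/- replicate 2 are the low libraries for *Eln*, *Fbn2*, *Mfap2*, *Emilin1* and *Efemp2*, and the rows of *Fbn1*, *Fbln2* and *Fbln5* stay near 0.

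Among 10285 other genes whose mean level was 5 CPM or more, those most like *Eln* over the 6 libraries were *Rfx2*, *Eif5a*, *Usp5*, *2310036O22Rik* and *Ufm1* (Pearson correlations of 0.989 to 0.993). Those most like *Fbn1* were *Tulp3*, *Shc2*, *Rhob*, *Islr* and *Lypd1* (0.994 to 0.997). These correlations include the difference between the genotypes, in which *Lypd1* had a log2 fold change of 2.97 and *Islr* of 1.15.

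Of 51 further genes of elastic fibre assembly in 5 lists, 45 had enough counts to test. By the same thresholds 6 were called higher and 1 lower, beside 1.89% and 1.33% of all genes tested, which is also the background for the counts of each list. The lists were chosen with earlier results of these data known, so setting their counts beside these shares is not a test. The median log2 fold change over the 45 genes was 0.17. Among 6 genes of cross-linking, *Lox*, the main lysyl oxidase gene, fell from 4566, 3234 and 3885 CPM in WT to 1710, 1596 and 1105 CPM in *Mkx*-/- libraries. Its log2 fold change was -1.41 (SE 0.22, adjusted p by edgeR = 0.0122, and 0.0556 without WT replicate 3). *Loxl1*, whose product acts on elastin, rose from 44.3, 69.9 and 49.8 CPM to 129, 105 and 122 CPM, with a log2 fold change of 1.12 (SE 0.18, adjusted p by edgeR = 0.0151, and 0.0761 without WT replicate 3). Without WT replicate 1 its log2 fold change was 0.985, below the threshold of 1. The groups did not overlap for either gene. *Loxl2* did not pass the test, with a log2 fold change of -0.94 (adjusted p by edgeR = 0.140), but did so without WT replicate 1 (0.0307). The other 3 genes, *Loxl3*, *Loxl4* and *Bmp1*, had log2 fold changes between -0.34 and 0.12.

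Of 14 regulators bound to microfibrils, 2 were called higher and 0 lower. *Ltbp2*, a latent TGF-β binding protein gene whose product binds fibrillin-1, had 25.8, 15.5 and 8.41 CPM in WT and 55.8, 85.6 and 41.8 CPM in *Mkx*-/- libraries, with a log2 fold change of 1.88 (adjusted p by edgeR = 0.0351). *Adamts17*, a protease gene, had a log2 fold change of 1.23 (adjusted p by edgeR = 0.0417). Past the adjusted p alone, *Adamtsl5* and *Adamts6* rose, with log2 fold changes of 0.81 and 0.88 (adjusted p by edgeR = 0.0259 and 0.0186), and *Ltbp1* fell from 141, 189 and 193 CPM to 100, 77.1 and 98.9 CPM, with a log2 fold change of -0.92 (adjusted p by edgeR = 0.0215). *Ltbp3*, *Ltbp4*, *Tgfb1*, *Tgfb2* and *Tgfb3* did not pass the test, with log2 fold changes between -0.17 and 0.37. Each of these calls was lost when single libraries were left out. For *Ltbp2* these were WT replicates 2 and 3 and *Mkx*-/- replicates 1 and 2 (adjusted p up to 0.126), and for *Adamts17* all but WT replicate 1 (up to 0.125). For *Ltbp1* and *Adamtsl5* they were replicates 2 and 3 of both genotypes (up to 0.0818 and 0.105), and for *Adamts6* WT replicate 2 and *Mkx*-/- replicates 1 and 2 (up to 0.0859). Without WT replicate 1, the log2 fold change of *Adamts17* was 0.957, below the threshold of 1, so its call was lost there too. *D030025P21Rik* overlaps *Ltbp2* on the opposite strand.

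Of 10 genes related by family or by name to the fibulins, emilins and microfibril-associated proteins, 9 were tested, 2 were called higher and 0 were called lower. *Fbln7* had 4.65, 11.0 and 7.13 CPM in WT and 29.2, 25.6 and 35.7 CPM in *Mkx*-/- libraries, a log2 fold change of 2.0 (SE 0.28, adjusted p by edgeR = 0.00768). *Hmcn2*, a hemicentin gene, had 25.1, 23.4 and 17.5 CPM in WT and 78.6, 58.2 and 72.6 CPM in *Mkx*-/- libraries, a log2 fold change of 1.67 (adjusted p by edgeR = 0.00219). Both were past the threshold in all 6 fits with a library omitted. *Emilin2* rose by a log2 fold change of 0.89 (adjusted p by edgeR = 0.0213, and 0.0977, 0.0694 and 0.0739 without WT replicate 3, *Mkx*-/- replicate 2 and *Mkx*-/- replicate 3). *Mmrn1* had 0 counts in all libraries.

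Of 11 elastin-degrading proteases, 7 were tested and *Mmp2* was the gene called higher, with a log2 fold change of 1.12 (adjusted p by edgeR = 0.00380), past the threshold in all 6 fits with a library omitted. *Ctss* and *Ctsk*, with log2 fold changes of -0.59 and 0.33, did not pass it (adjusted p by edgeR = 0.114 and 0.135). The macrophage elastase gene *Mmp12* had 0 CPM in 5 libraries and 0.211 CPM in *Mkx*-/- replicate 2. Of 10 receptor genes, which include integrin subunits and the elastin receptor complex, 9 were tested and 0 passed the test (edgeR). At an unadjusted p under 0.05, 3 of the 9 were higher, beside 12.5% of all genes tested, namely *Itgb3*, *Itga5* and *Ctsa* with log2 fold changes of 0.82, 0.52 and 0.28. DESeq2 put *Itgb3* and *Itga5* past an adjusted p of 0.05 (0.0264 and 0.0347), and 0 of the 9 past the fold threshold as well.

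**Figure D5:**
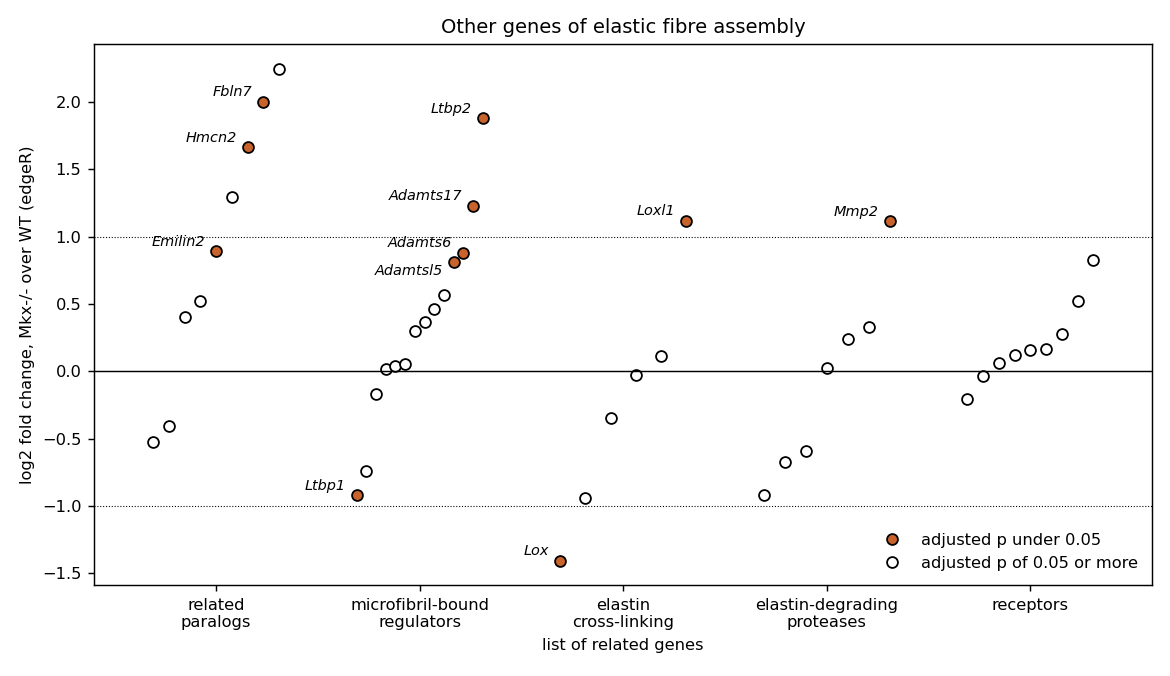
Log2 fold change of *Mkx*-/- over WT (vertical axis) for the 45 tested genes of the 5 lists, each point a gene and filled where the edgeR adjusted p was under 0.05. *Lox* at -1.41 and *Loxl1* at 1.12 lie at opposite ends of the cross-linking list.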

How the data were processed

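The data were gene counts of tail tendon, with 3 libraries for WT and 3 for *Mkx*-/- mice. The authors removed adaptors and poor reads, aligned reads to mm9 with MapSplice and deposited raw counts per gene symbol. The counting program, its annotation and strand setting are not given in the sources used here. All 6 columns were mapped by label, and 0 were left unused.

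From the deposited counts, edgeR 4.0.16 (R 4.3.3) was run with filterByExpr, TMM and a quasi-likelihood fit on genotype, with Benjamini-Hochberg adjustment over 14550 genes. Standard errors are the log2 fold change over the root of F. DESeq2 1.42.0, other scalings and filters, glmTreat, a robust fit, a replicate block and each library left out were alternatives. The fit was tested on simulated data. Gene records, exon lengths and positions come from GENCODE M1 (NCBIM37, the build mm9).

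Members and lists were chosen with earlier results of these data known. The text names all members, called genes of the 5 lists and at most 3 others per list with the smallest p, genes most like *Eln* and *Fbn1*, and *Mkx*. Further genes were named after their values were seen. Depths of 10835070 to 14160301 counts leave *Fbn2* as the member with the largest counting error.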

Additional observations from a re-analysis of the deposited data

How the results depend on the processing

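Of the 10 genes, *Eln*, *Fbn2*, *Fbln2* and *Efemp2* kept their direction and stayed short of an adjusted p of 0.05 in all 17 alternatives. *Fbln1* kept its direction in all 17 and lost the threshold only in glmTreat, which tests against a fold change of 2 (adjusted p = 0.225). *Fbn1*, *Fbln5* and *Mfap5* kept their direction in all 17, and 10, 6 and 5 of these put them short of the threshold. The sign of *Emilin1* turned with scaling by library size only (0.15) and varied from -0.32 to 0.056 with a library left out, and that of *Mfap2* varied from -0.00062 to 0.56. Scaling by library size only moved the median of all genes to 0.25.

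With library size only, 1 member (*Mfap5*), 11 related genes and 711 of all genes were called higher, with 154 of all genes lower. A filter of 1 count in any library gave 541 genes higher and 322 lower, against 275 and 193. With glmTreat, 0 members and 0 related genes were called lower, 0 related genes were called higher, and 34 of all genes were higher and 41 lower. The cause was not tested, apart from the stricter hypothesis of glmTreat. Leaving out a library gave 0 to 1 members higher (*Mfap5*, without WT replicate 2), 3 to 5 related genes higher and 0 to 3 lower, and 103 to 321 of all genes higher and 112 to 248 lower, with the lowest counts of all genes without WT replicate 3. The count of genes called higher was also moved by leaving out WT replicate 2 (119), *Mkx*-/- replicate 2 (155) and *Mkx*-/- replicate 3 (177).

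Replicate numbers were not used as pairs in the main fit. Same-numbered libraries had correlations of 0.026, -0.21 and 0.30 in their deviations, and WT replicate 1 correlated best with *Mkx*-/- replicate 2 (0.40). With 3 libraries per genotype, these values cannot show whether the libraries were paired. With the replicate block, *Fbn1*, *Fbln5* and *Mfap5* had adjusted p of 0.134, 0.0535 and 0.0540, and 195 genes were higher and 136 lower. No member's call by both thresholds changed with the block, and no other member crossed an adjusted p of 0.05. Places in the order of levels moved with coding length. *Fbn2* had the lowest mean CPM of the members in both genotypes, with 51 to 346 counts per library. Its coefficient of variation was 58.5% in WT and 62.1% in *Mkx*-/- libraries. The part of counting error in this spread was not tested.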
